A study of Danio rerio with 6 samples.

Results

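Chemokines are small secreted proteins that guide moving cells, and their receptors are membrane proteins on the cells that follow them. The genes of this system were examined in zebrafish liver, in fish that express human ATG5 and in wild-type fish. Genes were taken by symbol: ccl and cxcl genes were set down as ligands, and ccr, cxcr, xcr and ackr genes as receptors. The deposited table held 79 such genes among 30628, and 58 of them had an estimated count of at least 10 in at least 3 of the 6 libraries. Of these 58 genes, 35 were ligands and 23 were receptors. The other 21 (16 ligands and 5 receptors) stayed below that minimum and are described at the end.

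Liver RNA was sequenced in 3 ATG5 libraries and 3 WT libraries. All came from fish given mifepristone, a steroid that switches on the transgene, and all had the time label 2 wpi. The ATG5 fish carried Tg(fabp10a:mCherry-T2A-LexPR;LexOP:ATG5WT): the fabp10a promoter, which is active in hepatocytes, drives mCherry and the drug-dependent activator LexPR, and LexPR in turn drives human ATG5, an autophagy gene. The series calls the ATG5 livers hepatocellular carcinoma and the WT livers normal liver. A transgenic group kept off the drug is not among the samples, and so the action of ATG5 cannot be told apart from any other difference of the line. Neither the age of the fish nor whether a library came from 1 fish or a pool is given in the labels, and a p-value here speaks only of the spread from library to library, which may be technical.

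Chemokine classes are named for the spacing of cysteines near the start of the protein, and the CC (ccl) and CXC (cxcl) classes are the largest. Most chemokines reach a leukocyte receptor that signals through inhibitory G proteins, whereas atypical receptors (ackr) bind chemokines without that signal and clear or shape their gradients. Inflammatory chemokines are induced by cytokines such as interferon gamma and TNF, and homeostatic ones place cells in resting tissue. Fish carry many CC and CXC genes in tandem groups that have no single mammalian counterpart, so a role known from mammals is named as such below.

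Levels are CPM (reads of a gene relative to the scaled size of its library) after TMM scaling, which corrects for a few very abundant genes, and a list of 3 values runs from replicate 1 to replicate 3. A count of 3 in a library, the upper limit that a count of 0 allows, corresponded to 0.0503 to 0.0606 CPM in the ATG5 libraries and 0.0896 to 0.12 CPM in the WT libraries (counting error only). The groups were compared with edgeR's quasi-likelihood test over all 20366 genes that passed its filter, and "higher", "lower", "rose" and "fell" are used of an adjusted p under 0.05. All directions are relative to TMM scaling; with library sizes only, the median gene's log2 fold was 0.94 higher. Total estimated counts ran from 33669057 to 44763325 per library. The hepatocyte markers were high in every library, and 9 of 12 were lower in ATG5 (summed level 81410 to 112200 CPM in ATG5 and 262600 to 316100 CPM in WT).

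Leukocyte markers differed between the groups as well. The exception was the NK and innate lymphoid list, whose share higher was near that of all genes tested (17.3% higher and 13.2% lower). Of the macrophage markers, 15 of 15 tested were higher in ATG5, with a summed level of 2186 to 2532 CPM in ATG5 and 279.7 to 388.5 CPM in WT. Of the T cell markers 7 of 12 were higher (summed 387.6 to 496.6 CPM in ATG5 and 8.236 to 13.66 CPM in WT). Of the B cell markers 7 of 8 were higher (51.25 to 103.2 and 17.24 to 21.64 CPM). Of the neutrophil markers 4 of 8 were higher (80.93 to 100.3 and 34.7 to 36.51 CPM): NCF1, NCF4, srgn and itgb2. The neutrophil markers lyz, npsn, MMP9 and CSF3R did not pass (log2 folds -0.058, 0.011, 0.183 and 0.836). Of that list srgn and itgb2 had the highest means, 48.9 and 30.34 CPM in ATG5 and 19.88 and 8.637 CPM in WT. Of the NK and innate lymphoid markers 1 of 6, gzma, was higher, and the summed ranges overlapped (12.07 to 19.8 and 9.91 to 13.18 CPM). No leukocyte marker was lower, and none that matched a symbol was at 0 in all 6 libraries. The markers mpeg1.1 and mpx matched no symbol and were not analysed here. In bulk liver RNA, more cells of a type and more RNA per cell cannot be told apart, and the part of the leukocyte markers in the results below was not tested.

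Most genes of the chemokine system that passed the test were higher in the ATG5 livers, and the 3 that were lower were all ligands. Of 57 genes tested, 25 were higher and 3 were lower, which is 43.9% and 5.26%. Over all genes tested, 17.3% were higher and 13.2% were lower. All 28 calls had a log2 fold of at least 1 in size, which held for 14.2% (higher) and 8.37% (lower) of all genes tested. Among the ligands 13 of 34 were higher and 3 lower, and among the receptors 12 of 23 were higher and 0 lower (median log2 fold 1.09 for ligands and 2.04 for receptors, and 0.03 for all genes tested). These shares and medians are a description, because 9 genes reached the minimum of 10 counts in the ATG5 libraries alone, and 7 of those 9 are among the 25. Of the 24 genes with at least 10 counts in every library, 8 were higher (33.3%) and 3 lower (12.5%). No receptor was lower in edgeR, limma-voom or DESeq2, and the receptors with a log2 fold below 0 were CCR8, ACKR3 (ENSDARG00000058179) and ccr11.1, whose adjusted p ranged from 0.481 to 0.787.

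**Figure D1:**
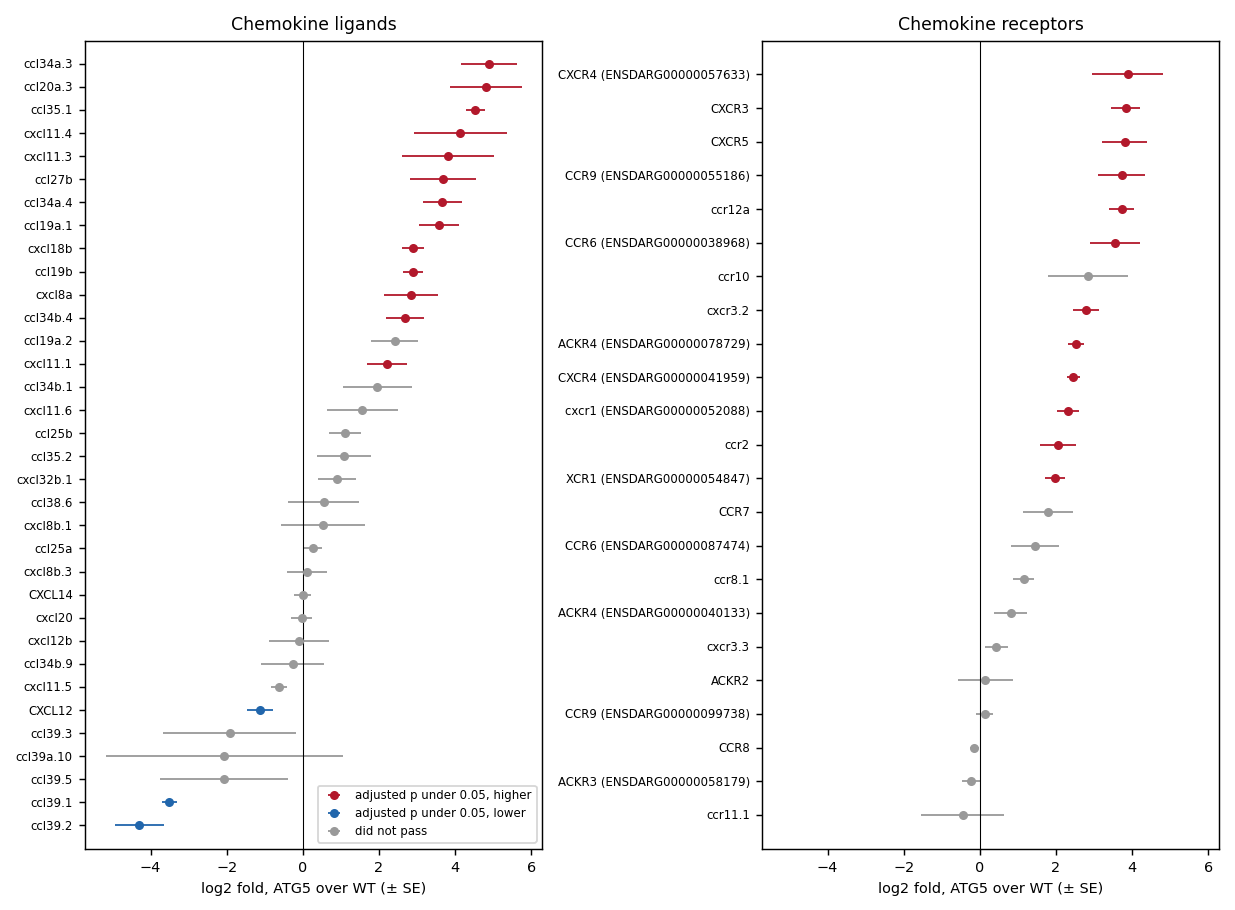
The log2 fold, ATG5 over WT, is plotted on the x axis for each tested ligand (left) and receptor (right), with 1 gene per row; points are edgeR estimates, bars are the standard error from 3 libraries per group, and colour gives the call. Tested ligands ran from -4.30 (ccl39.2) to 4.90 (ccl34a.3) and tested receptors from -0.45 to 3.88. The called receptors lay between 1.97 and 3.88, and 11 of the 23 receptors did not pass. With library sizes only, the median gene moves up by 0.94 and the CXCL12 call is lost.

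The 28 called genes had groups that did not overlap, as did 6 genes that did not pass (34 of 57 tested, 59.6%, against 49.3% of all genes tested). Leaving out 1 library in turn kept the call of 17 of the 28 genes and ended that of 11, with an adjusted p between 0.0502 and 0.108. Among ligands the number called higher was 8 without WT replicate 1. With library sizes only, 40 genes were higher and 2 lower, where 53.2% of all genes tested were higher and 2.84% lower. With DESeq2, 31 were higher and 4, all ligands, were lower, where 20.0% of all genes with an adjusted p were higher and 17.9% lower. Estimated counts of near-identical tandem copies are uncertain, because the counting can split shared reads among them; 31 of the 58 genes had at least 1 value that was not whole.

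The summed level of the ligand genes was lower in ATG5 after TMM scaling, and a single gene set that order. Ligand genes summed to 389.7, 301.1 and 375.2 CPM in ATG5, against 713.4, 691.6 and 897.3 CPM in WT. The gene ccl39.2 took 14.4%, 4.58% and 4.89% of the ligand counts in ATG5, and 70.7%, 74.5% and 80.3% in WT (shares of counts, not per length). Without ccl39.2 the other ligands summed to 333.5, 287.3 and 356.8 CPM in ATG5, and to 208.8, 176.3 and 176.6 CPM in WT. The order of the ligand sums with ccl39.2 depended on the scaling: with library sizes only they overlapped (531, 442.4 and 500.3 CPM in ATG5; 488.2, 527.7 and 644 CPM in WT). Receptor genes summed to 157.9, 123.2 and 163.5 CPM in ATG5 and to 60.85, 66.94 and 70.8 CPM in WT, and kept that order with library sizes only.

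**Figure D2:**
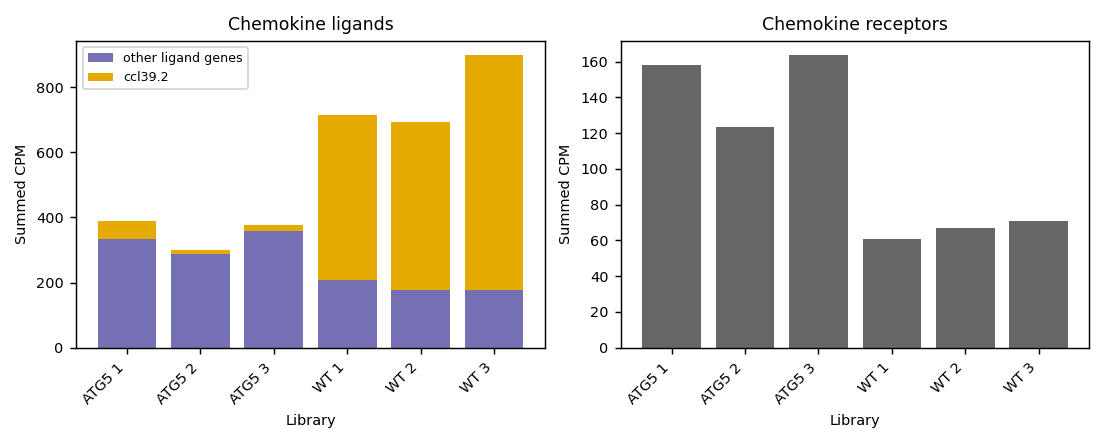
Summed CPM (y axis, TMM scaled) of the 35 ligand genes (left, with ccl39.2 in its own colour) and the 23 receptor genes (right) is drawn as a bar for each library. In WT most of the ligand bar is ccl39.2, in ATG5 most of it is other genes, and the 3 ATG5 receptor bars stand above the WT bars.

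The genes ccl39.1 and ccl39.2, a pair of fish CC chemokines that are neighbours in the RefSeq gene order (GRCz12tu), fell together. The level of ccl39.2 was 56.2, 13.8 and 18.4 CPM in ATG5 livers, against 505, 515 and 721 CPM in WT livers. The lowest WT library thus stood far above the highest ATG5 library, ATG5 replicate 1, and the log2 fold was -4.30 ± 0.64 (SE, n = 3 per group, edgeR adjusted p = 0.00472). Without ATG5 replicate 1 it was -5.20 (adjusted p = 0.00481). For ccl39.1 the values were 2.23, 1.86 and 2.03 CPM in ATG5, against 19.7, 20.6 and 29.3 CPM in WT, a log2 fold of -3.51 ± 0.20 (adjusted p = 0.000682). Both calls held under every alternative run. Both rows had estimated counts that were not whole, and whether the calls of these neighbours are independent was not tested. With the 7 ccl39.1 to ccl39.7 rows summed before the fit, the log2 fold was -4.19 (adjusted p = 0.00339). Most of that sum was ccl39.2 itself: it came to 59.47, 17.95 and 22.8 CPM in ATG5, against 534.8, 545.4 and 750.8 CPM in WT.

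The next protein-coding gene after ccl39.2 in that order, ccl35.1, moved the other way. Its level was 33.6, 20.3 and 31.3 CPM in ATG5 livers, against 1.08, 1.4 and 1.19 CPM in WT livers. The groups were far apart, with a log2 fold of 4.53 ± 0.25 (adjusted p = 0.000628), and this call also held under every alternative run. The related gene ccl35.2 was near the limit of detection (0.308 ± 0.184 CPM in ATG5 and 0.139 ± 0.14 CPM in WT, SD, adjusted p = 0.372).

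A further 3 genes of the ccl39 group split the libraries in another way, and they are named because of the values seen. The level of ccl39a.10 was 0.0558, 3.11 and 2.7 CPM in ATG5, against 14.1, 10.4 and 0 CPM in WT. For ccl39.5 the levels were 0.0744, 1.29 and 1.21 CPM in ATG5, against 5.48, 5.02 and 0.357 CPM in WT, and for ccl39.3 they were 0.205, 0.748 and 1.06 CPM in ATG5, against 4.12, 3.47 and 0.0793 CPM in WT. The lowest library of each group was the same for all 3 genes: ATG5 replicate 1 and WT replicate 3. In ccl39.2, by contrast, ATG5 replicate 1 and WT replicate 3 were the highest library of their group. None of the 3 passed (adjusted p = 0.401, 0.236 and 0.262 in the order given), with standard errors of 3.11, 1.68 and 1.76 on the log2 scale. What sets the values near 0 in these libraries was not tested.

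**Figure D3:**
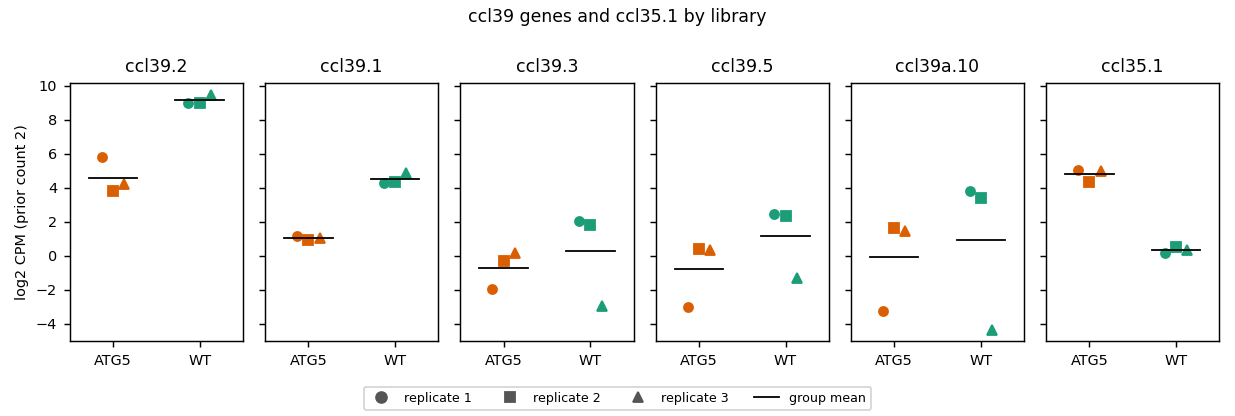
The level in each library (log2 CPM, prior count 2; marker shape gives the replicate, line the group mean) is shown for 5 ccl39 genes and ccl35.1, ATG5 left of WT in each panel. The groups are separate for ccl39.2, ccl39.1 and ccl35.1, while ATG5 replicate 1 and WT replicate 3 drop away from the rest for ccl39.3, ccl39.5 and ccl39a.10.

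Among the other CC ligands, ccl19a.1 and ccl19b were higher and ccl19a.2 did not pass. Their mammalian counterpart binds CCR7 and draws dendritic cells and T cells to lymphoid tissue. The level of ccl19a.1 was 36.8, 40.0 and 50.1 CPM in ATG5 livers, against 5.48, 1.58 and 3.65 CPM in WT livers, a log2 fold of 3.57 ± 0.53 (adjusted p = 0.00352). For ccl19b it was 0.986, 1.01 and 1.00 CPM in ATG5, against 0.08, 0.119 and 0.198 CPM in WT (log2 fold 2.89 ± 0.27, adjusted p = 0.00649). All ATG5 libraries stood above all WT libraries in both genes. The neighbour of ccl19a.1, ccl19a.2, had a log2 fold of 2.42 ± 0.62 and did not pass (adjusted p = 0.0516; 0.0433 without ATG5 replicate 2).

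The gene ccl20a.3, whose mammalian relative CCL20 attracts CCR6-bearing lymphocytes and dendritic cells, was higher but uneven. Its level was 6.7, 2.41 and 19 CPM in ATG5 livers, against 0.16, 0.359 and 0.476 CPM in WT livers (log2 fold 4.81 ± 0.94, adjusted p = 0.0108). ATG5 replicate 3 was 7.91 times ATG5 replicate 2, and without replicate 3 the log2 fold was 3.75 (adjusted p = 0.0197). The call was lost with limma-voom (adjusted p = 0.13). A like spread was seen in ccl27b, a relative of mammalian skin chemokines: 2.4, 13.4 and 2.21 CPM in ATG5, against 0.36, 0.627 and 0.396 CPM in WT. Here ATG5 replicate 2 was the high library. The log2 fold was 3.68 ± 0.87 (adjusted p = 0.0216), and 2.30 without ATG5 replicate 2 (adjusted p = 0.0188). That call ended without any 1 of the WT libraries (adjusted p = 0.0808, 0.0563 and 0.0731 without replicates 1 to 3) and with limma-voom (adjusted p = 0.162).

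Homeostatic ccl25 genes, which in fish and mammals mark the thymus, did not pass. The level of ccl25b was 66.3, 24.9 and 34.6 CPM in ATG5, against 20.1, 18.9 and 19.1 CPM in WT. Although every ATG5 library was above every WT library, the ATG5 values were spread, and the log2 fold of 1.11 ± 0.42 had an adjusted p of 0.0586 (0.0287 without ATG5 replicate 2, and 0.0199 with DESeq2). For ccl25a the groups overlapped (4.71 ± 0.867 CPM in ATG5 and 3.93 ± 0.887 CPM in WT, SD, adjusted p = 0.474).

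Of the fish-specific ccl34 genes, 3 of 5 were higher, beside 17.3% of all genes tested, and ccl34a.3 reached the minimum of 10 counts in the ATG5 libraries alone. The neighbours ccl34a.3 and ccl34a.4 had log2 folds of 4.90 ± 0.73 (adjusted p = 0.0183) and 3.66 ± 0.51 (adjusted p = 0.004). The level of ccl34a.4 was 7.31, 10.7 and 6.52 CPM in ATG5, against 0.44, 1.11 and 0.357 CPM in WT, and ccl34a.3 had 1.02, 2.37 and 0.905 CPM in ATG5, against 0, 0.119 and 0 CPM in WT. In both genes the groups were separate and ATG5 replicate 2 was the highest library. Without WT replicate 2 the log2 fold of ccl34a.4 was 4.34 (adjusted p = 0.00528), and ccl34a.3 then had no WT count at all. The ccl34a.3 call ended without ATG5 replicate 2, WT replicate 1 or WT replicate 3 (adjusted p = 0.0569, 0.0571 and 0.0516).

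On the other ccl34 stretch, ccl34b.4 had 2.94, 1.86 and 4.93 CPM in ATG5, against 0.48, 0.329 and 0.714 CPM in WT (log2 fold 2.68 ± 0.49, adjusted p = 0.011), and the groups did not overlap. Close by, with 1 protein-coding gene between them in the RefSeq order, ccl34b.1 averaged 5.33 ± 3.6 CPM in ATG5 and 1.38 ± 0.546 CPM in WT (SD, adjusted p = 0.0837); ATG5 replicate 1 lay among the WT libraries, and without it the adjusted p was 0.0215. The gene ccl34b.9 did not pass (log2 fold -0.27 ± 0.83), and with all ccl34b rows summed the stretch as a whole had a log2 fold of 1.89 (adjusted p = 0.0148). Neither ccl38.6 (log2 fold 0.55 ± 0.93, adjusted p = 0.657) nor the untested ccl38.1 (0.213 ± 0.034 CPM in ATG5 and 0.0133 ± 0.0231 CPM in WT) gave a call.

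Of the CXC ligands 5 of 14 were higher, 1 was lower and 8 did not pass, beside 17.3% higher and 13.2% lower of all genes tested. Among the higher ones, cxcl8a reached the minimum of 10 counts in the ATG5 libraries alone. In mammals CXCL11 is induced by interferon and binds CXCR3, and in zebrafish larvae a cxcl11 gene draws macrophages through cxcr3.2. The level of cxcl11.3 was 13.5, 6.13 and 11.9 CPM in ATG5 livers, against 0.6, 0.0598 and 1.62 CPM in WT livers (log2 fold 3.81 ± 1.21, adjusted p = 0.0259). Its neighbour cxcl11.4 had 6.46, 2.26 and 6.25 CPM in ATG5, against 0.24, 0 and 0.634 CPM in WT (4.13 ± 1.22, adjusted p = 0.0322). The third of that stretch, cxcl11.1, had 2.21, 0.869 and 2.68 CPM in ATG5, against 0.56, 0.329 and 0.357 CPM in WT (2.21 ± 0.53, adjusted p = 0.0239). In all 3 genes ATG5 replicate 2 was the lowest ATG5 library and still stood above every WT library.

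Each of the 3 cxcl11 calls ended when certain single libraries were left out, at log2 folds that then ran from 1.875 to 4.022. Those of cxcl11.3 and cxcl11.4 ended without ATG5 replicate 1 (adjusted p = 0.0745 and 0.091), ATG5 replicate 3 (0.0695 and 0.0866) or WT replicate 1 (0.0925 and 0.108), and without WT replicate 3 their log2 folds were 5.04 and 5.46. Without WT replicate 2 the log2 fold of cxcl11.4 was 3.50 (adjusted p = 0.0273). That of cxcl11.1 ended without ATG5 replicate 1 (0.0749), ATG5 replicate 3 (0.0799) or WT replicates 1, 2 or 3 (0.0539, 0.0743 and 0.0756). With limma-voom, cxcl11.1 and cxcl11.4 did not pass (adjusted p = 0.0823 and 0.0533). The gene cxcl11.5 was on the other side, with 3.26 ± 0.71 CPM in ATG5 and 5.05 ± 0.536 CPM in WT (SD, log2 fold -0.63 ± 0.21, adjusted p = 0.091); DESeq2 called it lower (-0.66, adjusted p = 0.0495), and cxcl11.6 did not pass (1.56 ± 0.93, adjusted p = 0.235). With the 7 cxcl11 rows summed, the level was 26.9, 13.6 and 27.1 CPM in ATG5, against 7.04, 5.89 and 7.85 CPM in WT (log2 fold 1.70, adjusted p = 0.00927).

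Of the ligands that draw neutrophils in zebrafish, cxcl18b rose. It had 49.0, 52.8 and 44.2 CPM in ATG5 livers, against 9.04, 4.75 and 5.87 CPM in WT livers, a log2 fold of 2.89 ± 0.28 (adjusted p = 0.00158), and the call held under every alternative run. The interleukin 8 gene cxcl8a was low, at 0.67, 0.768 and 2.56 CPM in ATG5, against 0.08, 0.269 and 0.198 CPM in WT (2.83 ± 0.71, adjusted p = 0.033). Its call ended without ATG5 replicate 3 (adjusted p = 0.093), without WT replicates 1, 2 or 3 (0.0993, 0.0643 and 0.0899) and with limma-voom (0.111). The other interleukin 8 genes did not pass: cxcl8b.3 had 13.2, 13 and 4.59 CPM in ATG5, against 11.1, 9.17 and 8.24 CPM in WT (0.11 ± 0.52, adjusted p = 0.861), and cxcl8b.1 averaged 1.46 ± 1.01 CPM in ATG5 and 0.999 ± 0.887 CPM in WT (SD, adjusted p = 0.683). ATG5 replicate 3 was the highest ATG5 library for cxcl8a and the lowest for both cxcl8b genes.

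CXCL12 (ENSDARG00000037116), the homeostatic ligand of CXCR4 and ACKR3 that stromal and endothelial cells make, was the third ligand that fell. Its level was 5.47, 10.6 and 5.08 CPM in ATG5, against 15.4, 16.4 and 13.9 CPM in WT, a log2 fold of -1.11 ± 0.34 (adjusted p = 0.038). That call was the weakest of the 3: with library sizes only the log2 fold was -0.15 (adjusted p = 0.723), and the call ended without ATG5 replicate 1 (0.0981), ATG5 replicate 3 (0.0864) or WT replicates 1, 2 or 3 (0.0953, 0.0918 and 0.0733). Of the endothelial markers 1 of 8 tested was higher and 1 lower (summed 123 to 127.1 CPM in ATG5 and 153.7 to 181.6 CPM in WT). Of the stellate and fibroblast markers 2 of 12 were higher and 0 lower (summed 172.5 to 211.8 and 107.1 to 144.3 CPM). Over all genes tested the shares were 17.3% higher and 13.2% lower, and the part of these markers was not tested. The other cxcl12 gene, cxcl12b, did not pass (log2 fold -0.10 ± 0.79, adjusted p = 0.926).

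The gene cxcl20, the neighbour of cxcl11.1 in the RefSeq order, did not pass. Its level was 66, 54.6 and 97.1 CPM in ATG5, against 85.5, 62.4 and 75.4 CPM in WT, and the groups overlapped (log2 fold -0.04 ± 0.28, adjusted p = 0.929). CXCL14, an epithelial chemokine in mammals, also had overlapping groups (1.79 ± 0.416 CPM in ATG5 and 1.8 ± 0.236 CPM in WT, SD, adjusted p = 0.986). With library sizes only these log2 folds were 0.90 and 0.95 and passed (adjusted p = 0.0138 and 0.0425). The gene cxcl32b.1 did not pass (0.89 ± 0.49, adjusted p = 0.237).

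**Figure D4:**
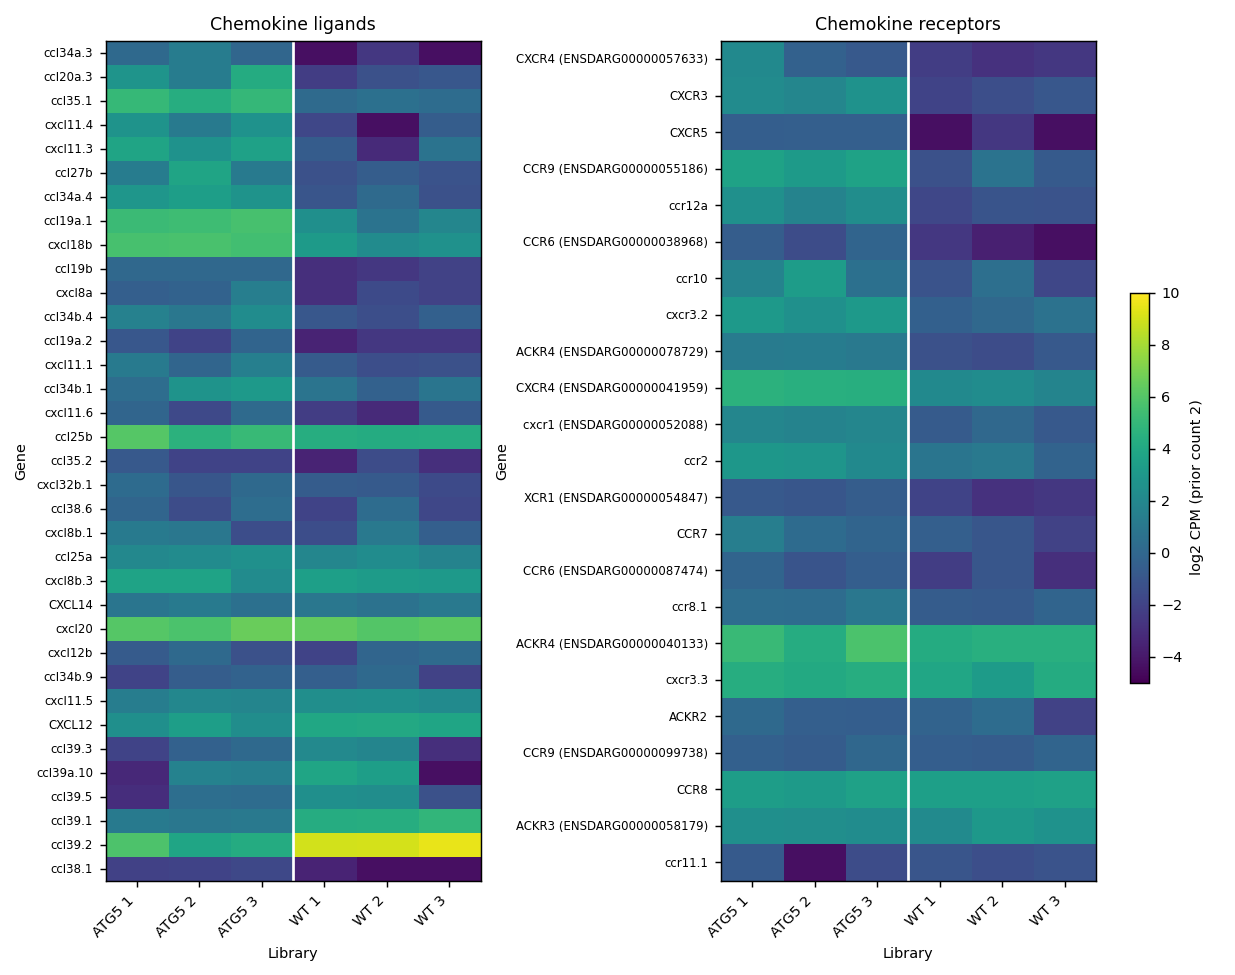
Each row is a gene and each column a library, ATG5 left of WT and separated by a white line; colour is log2 CPM (prior count 2) on 1 scale for ligands (left) and receptors (right), with genes ordered by log2 fold and the untested ccl38.1 last. The rows of ccl39.2 and ccl39.1 are brighter in WT, the upper rows of both panels are brighter in ATG5, and rows such as cxcl20 and CCR8 look alike across the line.

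Of the CXC class receptors, 6 of 7 were higher, beside 17.3% of all genes tested. Among them, CXCR4 (ENSDARG00000057633) and CXCR5 reached the minimum of 10 counts in the ATG5 libraries alone. A CXCR1 row (ENSDARG00000054975) stayed below that minimum and was not tested. It had 0.1675, 0.1415 and 0.134 CPM in ATG5, against 0.1199, 0.08965 and 0.1982 CPM in WT. CXCR4 (ENSDARG00000041959), the CXCL12 receptor of leukocytes and progenitor cells, had 24.9, 21.7 and 21.4 CPM in ATG5 livers, against 4.24, 4.78 and 3.33 CPM in WT livers. The libraries of each group were close together, and the log2 fold was 2.46 ± 0.17 (adjusted p = 0.000976), held under every alternative run. The second row with that symbol, CXCR4 (ENSDARG00000057633), had 4.24, 0.728 and 0.519 CPM in ATG5, against 0.16, 0.0896 and 0.119 CPM in WT (3.88 ± 0.92, adjusted p = 0.0298). Most of its level came from ATG5 replicate 1; the log2 fold without that library was 2.30 (adjusted p = 0.0491), and the call ended without any 1 of the WT libraries (0.0862, 0.0927 and 0.0885) and with limma-voom (0.191).

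The CXCR3 group, receptors for interferon-induced chemokines, had 2 higher genes and 1 that did not pass. CXCR3 (ENSDARG00000007358) had 4.65, 3.62 and 6.13 CPM in ATG5, against 0.2, 0.329 and 0.476 CPM in WT (log2 fold 3.83 ± 0.38, adjusted p = 0.00223). The macrophage receptor gene cxcr3.2 had 8.24, 5.8 and 8.29 CPM in ATG5, against 0.72, 1.02 and 1.51 CPM in WT (2.78 ± 0.34, adjusted p = 0.00298). Both were separate between the groups and held under every alternative run. With the 3 rows of this group summed, cxcr3.3 included, the log2 fold was 1.01 (adjusted p = 0.0311). Its neighbour cxcr3.3, described in zebrafish as a decoy that limits cxcr3.2 signalling, had 20.2, 17.3 and 20.3 CPM in ATG5, against 14.4, 9.5 and 18.9 CPM in WT (0.43 ± 0.30, adjusted p = 0.259). The groups of cxcr3.3 overlapped, and with library sizes only it passed at 1.38 (adjusted p = 0.0044). Whether cxcr3.2 and cxcr3.3 differed in their fold was not tested.

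Neutrophils of fish and mammals carry the interleukin 8 receptors. The row cxcr1 (ENSDARG00000052088) had 3.65, 3.23 and 3.58 CPM in ATG5, against 0.56, 1.02 and 0.515 CPM in WT (log2 fold 2.31 ± 0.29, adjusted p = 0.00546), held under every alternative run. CXCR5, which in mammals places B cells in follicles, was near the limit of detection with 0.651, 0.687 and 0.67 CPM in ATG5, against 0, 0.119 and 0 CPM in WT (3.81 ± 0.60, adjusted p = 0.0309). Its call ended without any 1 of the ATG5 libraries (0.0824, 0.082 and 0.0831) and without WT replicate 1 or 3 (0.0869 and 0.0766), and without WT replicate 2 no WT count was left. XCR1 (ENSDARG00000054847), in mammals a receptor of cross-presenting dendritic cells, had 0.521, 0.465 and 0.62 CPM in ATG5, against 0.2, 0.0896 and 0.119 CPM in WT (1.97 ± 0.27, adjusted p = 0.0263), and lost its call without any 1 of the ATG5 libraries (0.0831, 0.0658 and 0.0964) or WT libraries (0.0502, 0.0884 and 0.0835). With no filter on low counts neither CXCR5 (0.0546) nor XCR1 (0.0608) passed. For genes this scarce the printed standard error is too small, since adding a prior count of 2 pulls low values together.

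Of the CC receptors, 4 of 11 were higher, beside 17.3% of all genes tested. Among them, CCR6 (ENSDARG00000038968) reached the minimum of 10 counts in the ATG5 libraries alone. CCR9 (ENSDARG00000055186), the CCL25 receptor of thymus and gut homing cells, had 12.2, 8.96 and 12.6 CPM in ATG5 livers, against 0.36, 1.58 and 0.555 CPM in WT livers, a log2 fold of 3.73 ± 0.61 (adjusted p = 0.0054) that was 4.60 without WT replicate 2. The fish receptor gene ccr12a had 5.82, 3.23 and 5.08 CPM in ATG5, against 0.24, 0.418 and 0.396 CPM in WT (3.73 ± 0.34, adjusted p = 0.00191). The monocyte receptor gene ccr2 had 7.52, 6.91 and 4.26 CPM in ATG5, against 1.72, 2.00 and 0.793 CPM in WT (2.04 ± 0.47, adjusted p = 0.014). In CCR9 (ENSDARG00000055186), ccr12a and ccr2 all ATG5 libraries stood above all WT libraries, and no call was lost when 1 library was left out.

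CCR6 (ENSDARG00000038968), the CCL20 receptor in mammals, was scarce at 0.633, 0.303 and 0.855 CPM in ATG5, against 0.12, 0.0299 and 0 CPM in WT (log2 fold 3.54 ± 0.66, adjusted p = 0.0325). Its call ended without ATG5 replicates 1, 2 or 3 (0.0891, 0.0522 and 0.101) and WT replicates 2 or 3 (0.108 and 0.0695), and without WT replicate 1 the log2 fold was 4.94. It also ended with no filter on low counts (0.0554) and with both CCR6 rows summed (0.0543). The second CCR6 row (ENSDARG00000087474) did not pass (1.45 ± 0.63, adjusted p = 0.158). Other CC receptors with separate groups did not pass either: ccr10 (2.83 ± 1.05, adjusted p = 0.0628), CCR7 (1.80 ± 0.66, adjusted p = 0.0767) and ccr8.1 (1.15 ± 0.27, adjusted p = 0.0589). DESeq2 called these 3 genes (adjusted p = 0.00501, 0.036 and 0.0441).

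Some CC receptors had levels that overlapped between the groups. CCR8 had 10.1, 9.1 and 11.8 CPM in ATG5, against 11, 11.2 and 12 CPM in WT (log2 fold -0.14 ± 0.11, adjusted p = 0.527), and with library sizes only it passed as higher at 0.79 (adjusted p = 0.00674). The second CCR9 row (ENSDARG00000099738) averaged 0.749 ± 0.188 CPM in ATG5 and 0.69 ± 0.125 CPM in WT (SD, adjusted p = 0.834). The pair of CCR9 rows thus stood at log2 folds of 3.73 and 0.12, a difference that was not tested, and at 2.97 when summed (adjusted p = 0.00248). The gene ccr11.1 averaged 0.28 ± 0.27 CPM in ATG5 and 0.388 ± 0.056 CPM in WT (SD, adjusted p = 0.787).

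Among the atypical receptors 1 of 4 was higher, a single gene, beside 17.3% of all genes tested. ACKR4 scavenges CCL19, CCL21 and CCL25 in mammals and had 2 rows. The row ACKR4 (ENSDARG00000078729) had 2.33, 2.37 and 2.04 CPM in ATG5, against 0.36, 0.299 and 0.515 CPM in WT (log2 fold 2.52 ± 0.21, adjusted p = 0.00403), with groups that were separate and even. The other row, ACKR4 (ENSDARG00000040133), had 36.4, 19.6 and 53.7 CPM in ATG5, against 18.3, 21.8 and 22.5 CPM in WT, and the groups overlapped through ATG5 replicate 2 (0.81 ± 0.43, adjusted p = 0.135). Without that library the adjusted p was 0.0247, and with both rows summed it was 0.0954, which ends the call of the first row. ACKR3 (ENSDARG00000058179), the CXCL12 scavenger, had 5.26 ± 0.285 CPM in ATG5 and 6.21 ± 1.64 CPM in WT (SD, adjusted p = 0.481), and ACKR2, a scavenger of inflammatory CC chemokines, had 0.8 ± 0.226 CPM in ATG5 and 0.721 ± 0.488 CPM in WT (adjusted p = 0.89).

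Ligands set beside a receptor of the same axis, as known from mammals or zebrafish, differed in which side passed. Ligand and receptor both passed for ccl20a.3 with CCR6 (ENSDARG00000038968), for cxcl11.3 with cxcr3.2 (log2 folds 3.81 and 2.78) and for cxcl8a with cxcr1 (ENSDARG00000052088) (2.83 and 2.31). For ccl19a.1 and ccl27b the ligand passed and the receptor, CCR7 and ccr10, did not. For ccl25b with CCR9 (ENSDARG00000055186) the receptor alone passed (1.11 and 3.73). On the CXCL12 axis the ligand was lower and the receptor CXCR4 (ENSDARG00000041959) higher (-1.11 and 2.46), and with library sizes only the ligand did not pass. The pairs hold the gene of each side chosen with its values known. Among other genes of these axes, the second CCR6 row (ENSDARG00000087474, adjusted p = 0.158), cxcl8b.3 (0.861), cxcl8b.1 (0.683), cxcr3.3 (0.259) and cxcl11.5 (0.091) did not pass. Neither did ccl25a (0.474), the second CCR9 row (ENSDARG00000099738, 0.834), cxcl12b (0.926) and ACKR3 (ENSDARG00000058179, 0.481). By contrast, ccl19b, cxcl11.1, cxcl11.4, CXCR3 and the second CXCR4 row (ENSDARG00000057633) were higher. The calls of CCR6 (ENSDARG00000038968), cxcl11.3, cxcl8a and ccl27b ended when certain single libraries were left out, as given above. CCR6 (ENSDARG00000038968), cxcl8a, ccl19b and the second CXCR4 row reached the minimum of 10 counts in the ATG5 libraries alone. As these genes entered through the group where they were higher, their place in this comparison is a description. No difference between a ligand and its receptor was tested.

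**Figure D5:**
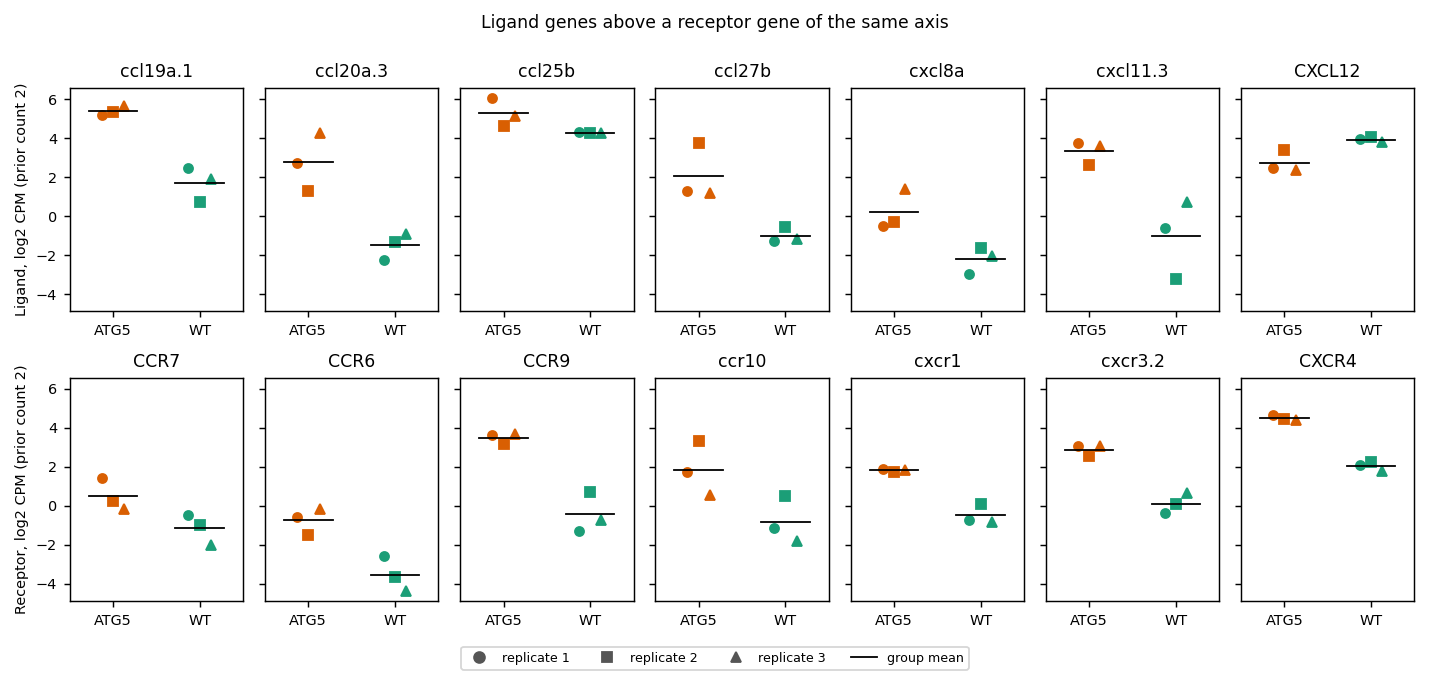
Levels in each library (log2 CPM, prior count 2; marker shape gives the replicate, line the group mean) are shown for 7 ligands in the upper row and a receptor of the same axis under each, ATG5 left of WT; CCR6, CCR9, cxcr1 and CXCR4 are the rows ENSDARG00000038968, ENSDARG00000055186, ENSDARG00000052088 and ENSDARG00000041959. CXCL12 lies lower in ATG5 and every other gene shown has its ATG5 points above its WT points, although ccl25b, CCR7 and ccr10 did not pass.

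The spread among the ATG5 libraries was described by the factor between the highest and lowest library. The highest ATG5 library stood over the lowest by a median factor of 2.67 for ligands and 1.61 for receptors, and by 1.48 for all genes tested. Among the WT libraries the factors were 2.28, 1.97 and 1.54. These medians hold many genes of low count, and the difference was not tested. ATG5 replicate 2 was the lowest ATG5 library for 28 of the 58 genes, where it was so for 34.9% of all genes tested. It was the highest for ccl27b and for ccr10, which had 3.22, 9.80 and 1.41 CPM in ATG5, against 0.4, 1.34 and 0.238 CPM in WT. ATG5 replicates 1 and 3 were higher than replicate 2 for ccl20a.3 and for cxcl11.1, cxcl11.3, cxcl11.4 and cxcl11.6.

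Of the 21 genes below the minimum, none had 10 counts in more than 2 libraries. Several had counts in ATG5 replicates 1 and 3 and few in replicate 2, which was also the lowest for cxcl11.1, cxcl11.3, cxcl11.4 and cxcl11.6. For cxcl11.5, ATG5 replicate 2 was the highest ATG5 library (2.475, 3.861 and 3.435 CPM). The estimated counts of cxcl19 were 23, 1 and 43 in ATG5 and 0, 2 and 0 in WT, those of ccl27a were 33, 2 and 51 in ATG5 and 3, 6 and 0 in WT, and those of cxcl11.7 were 59.9, 6.44 and 61.6 in ATG5 and 5.31, 0 and 2.56 in WT. The second ACKR3 row (ENSDARG00000062478) showed the reverse among the ATG5 libraries, with 29, 318 and 7 counts and none in WT. The gene ccl36.1 had 233, 0 and 1 counts in ATG5 and 39, 0 and 0 in WT, so that replicate 1 alone carried it in both groups. Only cxcl18a.1 (log2 fold 0.64, adjusted p = 0.451) and the second XCR1 row (ENSDARG00000052988; 24, 9 and 44 counts in ATG5, 0 in every WT library, adjusted p = 0.0232) entered the test. These genes were chosen after their values were seen.

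Genes that carry the chemokine signal inside the cell were more often higher than lower. Of the receptor signalling genes, 22 of 48 tested were higher and 2 lower (median log2 fold 0.95), where 17.3% of all genes tested were higher and 13.2% lower. The Src-family kinase gene LYN had a log2 fold of 3.06 ± 0.29 (adjusted p = 0.00153), the actin regulator gene CORO1A one of 2.73 ± 0.28 (0.00164), and rgs18, which shortens G protein signals, one of 3.26 ± 0.29 (0.00165). CDC42 and a JAK2 row were lower. The macrophage markers were higher in the same livers (15 of 15), and their part was not tested. With library sizes only, 38 were higher and 0 lower, against 53.2% and 2.84% of all genes.

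Of the genes that control chemokine transcription, 14 of 27 tested were higher and 1, CEBPB, was lower (median log2 fold 1.14), beside 17.3% and 13.2% of all genes tested. With library sizes only 25 were higher and 0 lower, beside 53.2% and 2.84% of all genes. IRF8, of the myeloid lineage, had a log2 fold of 3.82 ± 0.33 (adjusted p = 0.00122), and the NF-kappa B genes REL and nfkb2 had 2.67 ± 0.24 (0.00158) and 1.74 ± 0.17 (0.00191). Of the other NF-kappa B genes, added after their values were seen, relb was higher (1.096 ± 0.118, adjusted p = 0.00404). RELA (0.035 ± 0.115, adjusted p = 0.895) and nfkb1 (0.528 ± 0.155, adjusted p = 0.106) did not pass. Of the cytokine genes on that list, named after their values were seen, tnfb had 7.63, 5.90 and 8.48 CPM in ATG5, against 0.56, 0.149 and 0.515 CPM in WT (log2 fold 4.19 ± 0.55, adjusted p = 0.00288). IL10 was also higher (0.874, 0.202 and 0.854 CPM in ATG5, against 0, 0 and 0.0793 CPM in WT, adjusted p = 0.0312), and il1b did not pass (0.74 ± 0.33, adjusted p = 0.129). The genes ifng1, tnfa, il6 and il17a/f1 did not pass the filter on low counts and were not tested. In that order their means were 0.2475, 0.2934, 0.1763 and 0.006202 CPM in ATG5, against 0.01333, 0, 0 and 0 CPM in WT.

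Other chemoattractant genes were higher in 11 of 18 tested and lower in 0 (median log2 fold 2.15), beside 17.3% and 13.2% of all genes tested. The chemerin receptor gene CMKLR1 (ENSDARG00000090890) averaged 29.2 ± 1.99 CPM in ATG5 and 2.24 ± 0.6 CPM in WT (SD, log2 fold 3.70 ± 0.21, adjusted p = 0.000682). Of the other rows with that symbol, ENSDARG00000110362 was higher (adjusted p = 0.0209) and ENSDARG00000109654 did not pass (0.189). CMKLR2 did not pass either (0.706). The complement receptor gene c5ar1 had a log2 fold of 3.39 ± 0.39 (0.00282), the macrophage growth factor receptor gene csf1ra one of 2.53 ± 0.28 (0.00193), and csf1ra is also on the macrophage marker list. The sphingosine phosphate receptor gene S1PR1 had one of 2.62 ± 0.10 (0.00201). With library sizes only, 15 genes of this list were higher and 0 lower, beside 53.2% and 2.84% of all genes.

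Of the proteases that can cut chemokines, 6 of 15 tested were higher and 2, adam10a and adam10b, lower (median log2 fold 0.57), where 17.3% of all genes tested were higher and 13.2% lower, so that the share lower was near that of all genes; adam10b had a log2 fold of -1.46 ± 0.20 (adjusted p = 0.00437). The cathepsin genes ctss2.1, CTSK and CTSB had log2 folds of 4.64 ± 0.26 (adjusted p = 0.000628), 3.70 ± 0.20 (0.000628) and 1.68 ± 0.10 (0.00178), and ctss2.1 is also on the macrophage marker list. The gene dpp4, whose product removes the first residues of CXCL12 and other chemokines in mammals, had 29.0, 5.26 and 165.8 CPM in ATG5, against 0.96, 1.61 and 0.912 CPM in WT (log2 fold 5.83 ± 1.46, adjusted p = 0.0203); it was added to the named genes after its values were seen. The groups were separate, and ATG5 replicate 2 was again the lowest ATG5 library. With library sizes only, adam10a and adam10b were not lower: 0 of the proteases were lower and 10 were higher, beside 2.84% and 53.2% of all genes.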

How the data were processed

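Values in the authors' deposited file are estimated counts for Ensembl genes and are not always whole. The submitters' processing notes name the genome build GRCz11 and the tools sleuth (0.30.0), kallisto (0.45.0) and FastQC (0.11.5), in roles not given in the sources used here; the library kit was stranded, per the labels' protocols. Columns were matched to samples by description and to groups by title. Symbols came from a gene name table that covered 23608 of 30628 rows; rows that share a symbol are told apart by Ensembl ID. Gene order came from RefSeq (GRCz12tu), in which 38 of 41 lower-case member symbols were found, and no coordinates are given. No pair of libraries agreed within sampling noise in a chi-square test over genes.

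Counts were rounded, filtered with filterByExpr and scaled with TMM factors (0.684 to 1.469). The main test was edgeR's quasi-likelihood fit (version 4.0.16, under R 4.3.3) with group as its sole term and Benjamini-Hochberg adjustment over 20366 genes; the steps were tested on simulated data. Standard errors come from log2 CPM with a prior count of 2. The members and gene lists were chosen with earlier results of these data known. The rule for named genes gives every library's value for each called member and for the 6 uncalled members with the highest mean CPM, and takes up to 4 called genes with the smallest p from each list; additions are marked, and some genes the rule takes from the lists are not reported here. List names with a suffix a or b that matched no symbol were matched without it, and 49 of 53, 32 of 32, 21 of 26 and 16 of 16 names of the signalling, regulator, chemoattractant and protease lists matched. Alternatives were other scalings, filters and thresholds, DESeq2 1.42.0, limma-voom (limma 3.58.1), summed rows, a replicate block and leaving out each library. Of the fixed marker lists, hepatocyte genes were 9 of 12 lower and biliary genes 8 of 11 higher. Thrombocyte genes were 2 of 8 higher and erythrocyte genes 0 of 6 called, beside 17.3% higher and 13.2% lower of all genes tested. The 2 thrombocyte calls were the FERMT3 rows, which are also on the receptor signalling list, and the other thrombocyte genes tested did not pass. Figures were drawn with matplotlib 3.10.9.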

Additional observations from a re-analysis of the deposited data

How the results depend on the processing

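More members were higher than lower in ATG5 under every alternative run, in differing numbers, and the cause of the changes below was not tested. With library sizes only, 10837 of all genes were higher and 578 lower, 40 members (21 ligands and 19 receptors) were higher, and the medians were 2.00 for ligands and 2.98 for receptors; cxcl20, CXCL14 and CCR8 turned to passing log2 folds of 0.903, 0.948 and 0.793. With rows of a shared symbol stem summed, ccl34b.9 and cxcl11.5 took the values of their stems, 1.889 and 1.704. With limma-voom 8 ligands were higher. With a stricter filter the ligand median was 1.54. At an adjusted p under 0.01, 1518 genes were higher and 953 lower, and 12 members (5 ligands and 7 receptors) were higher; with a log2 fold of at least 1, 1705 genes were lower. Among members at 10 or more counts in all 6 libraries, 8 (4 ligands and 4 receptors) were higher, with medians of 0.19 and 0.98.

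Without 1 library at a time, 2218 to 2791 of all genes were higher and 1583 to 2071 lower; 17 to 24 members were higher and 2 to 3 lower, 8 to 14 ligands and 8 to 10 receptors were higher, 2 to 3 ligands were lower, and the medians ran from 1.04 to 1.64 for ligands and from 1.89 to 2.34 for receptors. The same-numbered libraries did not deviate together (correlations of -0.041, -0.1 and 0.021), so the numbers were not taken as pairs. With the replicate block 2253 genes were higher and 1636 lower, and 21 members were higher and 3 lower. The block ended the calls of cxcl11.1 (adjusted p = 0.0506), cxcl8a (0.0568), CXCR5 (0.0772), XCR1 (ENSDARG00000054847, 0.0821) and CCR6 (ENSDARG00000038968, 0.0824). It gave ccr10 a call (0.0152). Depth limits the genes under about 1 CPM, where 3 counts in a WT library come to 0.0896 to 0.12 CPM.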
